A study of Mus musculus with 20 samples.

Results

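A set of 9 genes that mark a change of fuel from glucose towards fatty acids was followed in the brains of *Winnie* mice: *Ppara*, *Cpt1a*, *Acot1*, *Slc27a1*, *Angptl4*, *Ucp2*, *Pdk4*, *Pdk2* and *Txnip*. They were chosen by name, with earlier results of these data known, and all 9 were found among the 17211 gene symbols of the expression table. The *Winnie* mouse carries a mutation of the mucin gene *Muc2* in every cell and develops colitis spontaneously. Whole brains were taken from 10 *Winnie* mice and from 10 C57BL/6 littermates of the same colony, both aged 14 weeks and with free access to food and water, so no mouse of either group was fasted by design. In each genotype 5 mice were labelled female and 5 male. The question was whether colitis was accompanied by a shift in the fuel genes of the brain.

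When glucose is scarce, tissues spare it and burn fatty acids. The nuclear receptor PPARα, encoded by *Ppara*, is activated by fatty acids and induces many genes of this response. Fatty acids enter cells with the help of transporters such as the *Slc27a1* product, and CPT1A carries their acyl groups into mitochondria on carnitine. The kinases encoded by *Pdk4* and *Pdk2* switch off pyruvate dehydrogenase, which closes the path from glucose to the mitochondrion. *Txnip* encodes a protein that restrains glucose uptake and responds to glucose itself. The adult brain relies mostly on glucose, and astrocytes carry out much of its limited fatty acid oxidation.

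The library totals ranged from 16540303 to 23923769 reads, with a median of 19087087, so 1 read was worth 0.0418 to 0.0605 CPM (reads of a gene scaled to library size). The RNA of 9 of the 10 C57BL/6 samples went against their sex label, read from *Xist* and *Ddx3y*, which are expressed from the inactive X and from the Y chromosome. C57BL/6 replicate 4 and all 10 *Winnie* samples matched. Whether the sex labels or the samples were exchanged was not tested. The genotype label itself could not be checked, since CPM values per gene do not show a missense mutation such as that of *Muc2*, which was not analysed here. Log2 fold changes are therefore also given without those 9 samples. This leaves replicate 4 alone for C57BL/6, so the size of the difference is given without a test. Libraries were numbered by genotype, so library order and genotype cannot be told apart. Nothing in the labels stated separate litters, and a p-value measures the spread between these samples. The tissue was checked with marker genes. Neuronal markers summed to a median of 6910 CPM in C57BL/6 and 6750 CPM in *Winnie* brains, and astrocyte markers to 4870 and 4920 CPM. Of the 8 astrocyte markers, 2 were lower and 0 higher in *Winnie* brains at an unadjusted p under 0.05 by limma. No measured marker of 10 cell type lists was at 0 in any sample, and *Mia* of the ependymal list was not measured. In whole tissue, fewer cells of a type and less RNA per cell cannot be told apart.

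The 250 bases before the transcription start were compared for the members with a RefSeq entry, which were all but *Angptl4*. Sequences of GRCm38.p6 are shown for the pair of members that passed the test (*Ucp2*, *Acot1*) and for a pair that carried a letter motif of fuel sensing (*Txnip*, *Cpt1a*). Both strands were searched for GTAAACA, which FoxO factors bind, and for CACGAG, one arm of the carbohydrate response element. The E-box letters CACGTG, the promoter letters CCAAT and the core of nuclear receptor elements, AGGTCA, were also searched. The last was AGAACA, one arm of the glucocorticoid response element. They are in capitals, and on the minus strand appear as their reverse complement.
Txnip, chr3:96557707-96557956, plus strand: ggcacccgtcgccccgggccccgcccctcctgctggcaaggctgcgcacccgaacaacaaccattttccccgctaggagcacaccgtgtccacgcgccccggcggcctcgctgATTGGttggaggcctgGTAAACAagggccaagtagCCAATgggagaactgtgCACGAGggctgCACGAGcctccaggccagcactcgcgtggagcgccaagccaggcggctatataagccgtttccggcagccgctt
Cpt1a, chr19:3323051-3323300, plus strand: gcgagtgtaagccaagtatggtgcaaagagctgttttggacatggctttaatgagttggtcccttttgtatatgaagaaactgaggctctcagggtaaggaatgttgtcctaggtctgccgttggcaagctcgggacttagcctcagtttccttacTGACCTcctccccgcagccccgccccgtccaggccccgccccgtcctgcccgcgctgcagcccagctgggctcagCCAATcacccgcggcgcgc
Acot1, chr12:84009252-84009501, plus strand: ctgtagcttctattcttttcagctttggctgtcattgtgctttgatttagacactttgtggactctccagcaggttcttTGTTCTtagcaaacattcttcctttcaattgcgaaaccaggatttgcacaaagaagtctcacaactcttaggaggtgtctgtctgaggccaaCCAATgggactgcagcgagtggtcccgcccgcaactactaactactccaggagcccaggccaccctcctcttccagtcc
Ucp2, chr7:100493108-100493357, plus strand: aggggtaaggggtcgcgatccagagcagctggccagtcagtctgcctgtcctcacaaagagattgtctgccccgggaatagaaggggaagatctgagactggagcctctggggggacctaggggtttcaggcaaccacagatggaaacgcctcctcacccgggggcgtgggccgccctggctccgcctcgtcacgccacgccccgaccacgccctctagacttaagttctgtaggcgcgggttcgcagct

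*Txnip* was the only member with GTAAACA, 121 bases before its start, a motif found in 3.17% of all 32851 such windows. It also held CACGAG at 85 and at 74 bases before the start, on the plus strand. The single motif was in 5.37% of windows, and a pair of these exact letters spaced 5 bases apart was in 1 window of 32851, that of *Txnip*. Other letter forms of the element were not counted as pairs, so this count does not give how rare the element is. *Cpt1a* alone held AGGTCA (14% of windows), at 94 bases and on the minus strand. *Acot1* alone held AGAACA (16.1% of windows), at 171 bases and on the minus strand. CACGTG (6.02%) was found for *Pdk2* and *Slc27a1*. CCAAT was found for 6 members and in 33.8% of all windows. *Pdk2* and *Slc27a1* had more than 1 window each, so members are counted per gene and shares per window. The *Ucp2* window held none of the searched motifs. AGGTCA repeated 1 base apart, the full PPAR element in its plainest letters, was in 0.0335% of windows and in none of the members'. These matches describe letters and not binding.

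Of the 9 genes, *Ucp2* was higher and *Acot1* lower in *Winnie* mouse brains at a false discovery rate (FDR) under 0.05, using limma on log2(CPM + 0.5) with Benjamini-Hochberg adjustment over all genes. By this rule 2.52% of all genes were called, 1.52% as higher and 1.01% as lower. At an unadjusted p under 0.05, 5 of the 9 passed: *Txnip*, *Ppara*, *Ucp2* and *Cpt1a* were higher and *Acot1* was lower. That rule took in 17.6% of all genes, 9.53% as higher and 8.08% as lower. The median log2 fold change was 0.17 over the members and 0.00 over all genes, and 8 of 9 members were positive. The set was chosen with earlier results of these data known, so these shares describe it and are not a blind comparison. None of the 9 reached the stricter threshold of the study (FDR under 0.001 and a fold change of at least 1.5) by limma. In this fit 0.0% of all genes reached it, and the smallest FDR was 0.00108. The study applied the threshold with edgeR to fewer brains and reported differentially expressed genes there, so the results are not like for like. Without the 9 C57BL/6 samples the log2 fold change was -0.07 for *Ucp2* and -0.10 for *Acot1*, as described for each gene. Whether either would still be called cannot be told from that fit, with replicate 4 alone for C57BL/6.

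**Figure D1:**
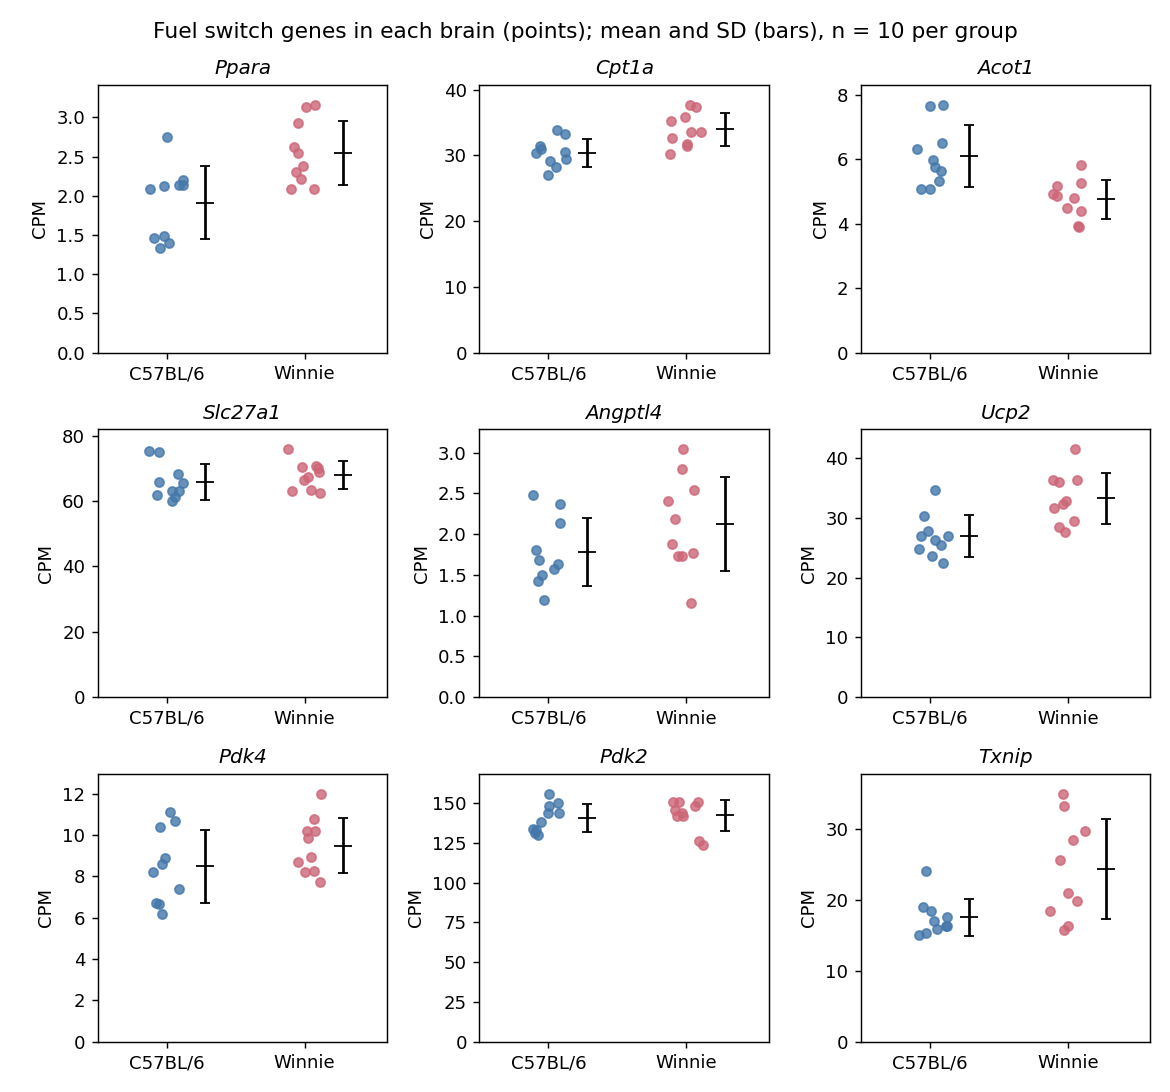
CPM (linear axis from 0) of the 9 genes in each brain of 10 C57BL/6 and 10 *Winnie* mice, with the mean and SD of each group beside the points. The groups overlapped for every gene; for *Acot1*, 7 of 10 *Winnie* brains lay below the lowest C57BL/6 brain, and for *Txnip* the *Winnie* brains were widely spread.

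Per kilobase of exon, *Pdk2* was the most abundant member, at 44.5 ± 2.84 CPM per kb in C57BL/6 brains (SD, n = 10). All annotated exons of a gene were joined for its length, 6989 bases for *Ucp2*, so these ranks depend on the annotation. *Slc27a1* followed at 11.3 ± 0.938 and *Txnip* at 5.62 ± 0.838 CPM per kb. *Cpt1a* (3.98 ± 0.276) and *Ucp2* (3.86 ± 0.499) were next to each other within their spread. *Pdk4* reached 2.42 ± 0.511 and *Acot1* 1.56 ± 0.243 CPM per kb. *Angptl4* (0.503 ± 0.120) and *Ppara* (0.498 ± 0.120) were the lowest, and did not differ beyond their spread. In *Winnie* brains *Ucp2* (4.76 ± 0.613) stood above *Cpt1a* (4.44 ± 0.330) by less than the spread, and the other ranks were as in C57BL/6 except that *Ppara* (0.664 ± 0.106) stood above *Angptl4* (0.600 ± 0.162), again within the spread.

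*Ppara*, the receptor of the fatty acid response (GRCm38 chromosome 15, 85734983-85802819, plus strand), had 26 to 63 reads per library. Its CPM ranged from 1.34 to 2.75 with a median of 2.10 in brains from C57BL/6 mice, and from 2.08 to 3.16 with a median of 2.46 in *Winnie* brains. The groups overlapped: 5 C57BL/6 brains lay below the lowest *Winnie* brain, and 3 *Winnie* brains above the highest C57BL/6 brain. The means were 1.91 ± 0.462 and 2.55 ± 0.408 CPM (SD, n = 10 each), a log2 fold change of 0.35 (SE 0.105, 95% interval 0.14 to 0.56) with an FDR of 0.0663 by limma. Of the 20 fits that left out 1 library, it passed in that without C57BL/6 replicate 1 (FDR 0.0295) and in none of the others (up to 0.137, without C57BL/6 replicate 5). Without the 9 C57BL/6 samples against their sex label the log2 fold change was 0.16. The related receptors were 34.9 ± 4.41 and 35.4 ± 3.04 CPM for *Ppard* (log2 fold change 0.03), and 2.30 ± 0.436 and 2.16 ± 0.272 CPM for *Pparg* (log2 fold change -0.07).

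*Cpt1a*, which encodes the carnitine palmitoyltransferase that admits long-chain fatty acids to mitochondria (chromosome 19, 3322334-3385733, plus strand), ranged from 27.0 to 33.9 CPM with a median of 30.5 in C57BL/6 brains. In *Winnie* brains it ranged from 30.2 to 37.7 CPM, with a median of 33.6. All but 1 *Winnie* brain lay above the C57BL/6 median, and 4 lay above the highest C57BL/6 brain. The difference was small: 30.4 ± 2.11 and 33.9 ± 2.52 CPM, with a log2 fold change of 0.15 (SE 0.0475, 95% interval 0.06 to 0.25) and an FDR of 0.0734 by limma. The FDR passed the threshold without C57BL/6 replicate 1 (0.0438) or without C57BL/6 replicate 10 (0.0445), and in none of the other 18 such fits (up to 0.138). Without the 9 C57BL/6 samples against their sex label the log2 fold change was 0.19. *Cpt1c*, the neuronal paralog, was at 93.6 ± 3.35 and 95.7 ± 3.94 CPM (log2 fold change 0.03, FDR 0.672).

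*Acot1* encodes a cytosolic thioesterase that splits long-chain acyl-CoA and is a PPARα target in liver and heart (chromosome 12, 84009490-84018371, plus strand). It ranged from 5.08 to 7.70 CPM with a median of 5.88 in C57BL/6 brains, and from 3.91 to 5.83 CPM with a median of 4.83 in *Winnie* brains. All 10 *Winnie* brains lay below the C57BL/6 median and 7 lay below the lowest C57BL/6 brain, whereas 5 C57BL/6 brains lay above the highest *Winnie* brain. The mean fell from 6.11 ± 0.954 to 4.76 ± 0.601 CPM, 20.1% on the scale of the fit, with a log2 fold change of -0.32 (SE 0.0827, 95% interval -0.49 to -0.16) and an FDR of 0.0331 by limma. It was the only one of the 9 with a negative log2 fold change.

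The *Acot1* call was close to the threshold. It was lost in 7 of the 20 fits that left out 1 library, with FDR values of 0.0503, 0.0677, 0.0529 and 0.0541 without C57BL/6 replicates 3, 5, 7 and 9, and of 0.0634, 0.0572 and 0.0513 without *Winnie* replicates 2, 7 and 10. The log2 fold change stayed between -0.35 and -0.29 in all 20. Without the 9 C57BL/6 samples against their sex label it was -0.10.

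*Acot1* lies in a cluster of near-identical genes. Of its 3853 stretches of 100 exonic bases, the read length, 12.4% also occur in another gene, most often *Acot2* with 359, which encodes the mitochondrial form. Reads of these stretches could be split or dropped by the counting, so the level of *Acot1* is uncertain. *Acot2* was at 6.27 ± 0.707 and 5.83 ± 0.709 CPM (log2 fold change -0.10, FDR 0.536). Summed after the values were seen, *Acot1* and *Acot2* gave 12.4 ± 1.35 and 10.6 ± 0.709 CPM, and *Acot1* to *Acot6* gave 23.6 ± 2.09 and 21.2 ± 1.1 CPM. These sums contain *Acot1* itself, and the part of shared reads in its decrease was not tested. None of the other 8 members shares a stretch of that length with the same-strand transcript sequence of another gene.

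*Slc27a1*, whose product brings fatty acids into the cell (chromosome 8, 71568882-71587302, plus strand), ranged from 60.1 to 75.3 CPM in C57BL/6 brains (median 64.2) and from 62.5 to 75.8 CPM in *Winnie* brains (median 68.1). The groups overlapped almost fully, with log2 fold change 0.04 (SE 0.0453, 95% interval -0.05 to 0.14) and FDR 0.667 by limma. *Slc27a4*, another transporter of the family, was at 99.8 ± 3.32 and 97.5 ± 6.22 CPM (log2 fold change -0.04). *Angptl4*, a secreted inhibitor of lipoprotein lipase (chromosome 17, 33773750-33781830, minus strand), ranged from 1.19 to 2.48 CPM in C57BL/6 brains (median 1.66) and from 1.16 to 3.04 CPM in *Winnie* brains (median 2.03). It rested on 23 to 56 reads per library. The *Winnie* group held both the lowest and the highest brain, and the log2 fold change of 0.19 had a wide interval of -0.06 to 0.44 (SE 0.123, FDR 0.432). Without the 9 C57BL/6 samples the log2 fold change was 0.42 for *Angptl4* and 0.15 for *Slc27a1*.

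*Ucp2* encodes a mitochondrial carrier that is raised with fatty acid use in several tissues (chromosome 7, 100493337-100502020, plus strand). It ranged from 22.5 to 34.7 CPM with a median of 26.6 in C57BL/6 brains, and from 27.7 to 41.5 CPM with a median of 32.6 in *Winnie* brains. All 10 *Winnie* brains lay above the C57BL/6 median, and 7 C57BL/6 brains lay below the lowest *Winnie* brain. The mean increased from 27.0 ± 3.49 to 33.3 ± 4.29 CPM, 23.0% on the scale of the fit, with a log2 fold change of 0.30 (SE 0.0713, 95% interval 0.15 to 0.45) and an FDR of 0.0238 by limma. The call was lost without C57BL/6 replicate 5 (FDR 0.0554) and kept in the other 19 fits that left out 1 library.

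The highest C57BL/6 value of *Ucp2*, 34.7 CPM, was that of replicate 4, the only C57BL/6 sample whose RNA matched its sex label. With that sample alone for C57BL/6 the log2 fold change turned to -0.07. With *Ddx3y* as a covariate it was 0.31 (FDR 0.0107). Within the samples labelled female it was 0.38 (FDR 0.170) and within those labelled male 0.21 (FDR 0.235), and for *Acot1* -0.41 (FDR 0.170) and -0.24 (FDR 0.443). By their RNA, 4 of the 5 C57BL/6 samples labelled female were male and all 5 labelled male were female, so these sets mostly compared *Winnie* brains with C57BL/6 brains of the other sex. Microglia, which express *Ucp2* strongly, had summed markers of 316 to 351 CPM (median 328) in C57BL/6 and 290 to 375 CPM (median 303) in *Winnie* brains, with 3 of 8 markers lower at an unadjusted p under 0.05 and none higher. Their part in the *Ucp2* result was not tested. *Ucp2* overlaps *Dnajb13* on the opposite strand, at 0.497 ± 0.305 and 0.597 ± 0.217 CPM, and the use of strand in the counting is not given in the sources used here.

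**Figure D2:**
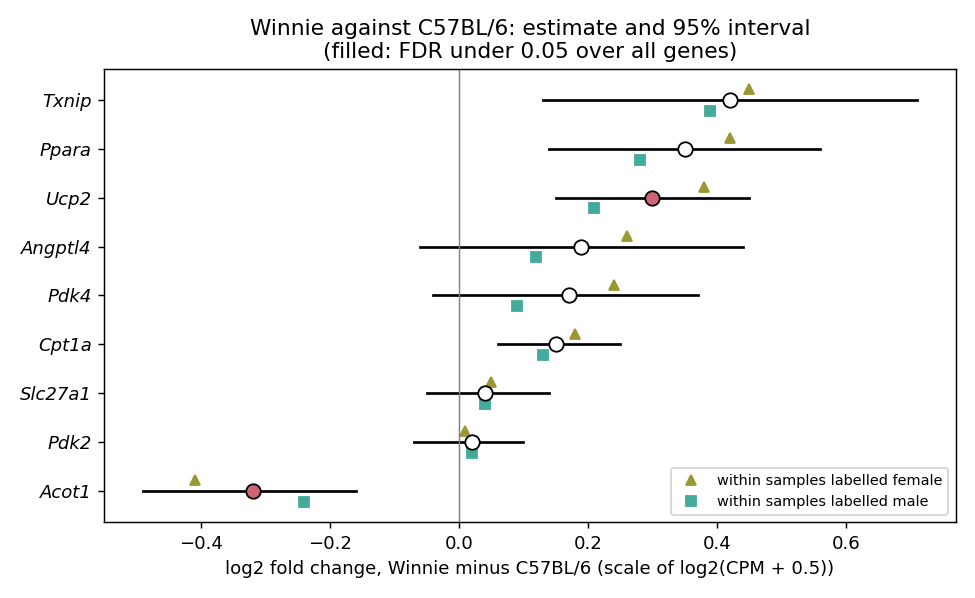
Log2 fold change of *Winnie* minus C57BL/6 brains for the 9 genes, with 95% intervals (lines) from limma over 20 samples, and the estimates within samples labelled female (triangles) and male (squares), in which 9 of 10 C57BL/6 samples had RNA of the other sex. Filled circles, *Ucp2* at 0.30 and *Acot1* at -0.32, passed an FDR of 0.05; the intervals of *Pdk4*, *Angptl4*, *Slc27a1* and *Pdk2* include 0.

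*Pdk4*, the kinase induced most strongly by fasting in muscle and liver (chromosome 6, 5483351-5496309, minus strand), ranged from 6.19 to 11.1 CPM with a median of 8.42 in C57BL/6 brains, and from 7.75 to 12 CPM with a median of 9.40 in *Winnie* brains. *Winnie* brains lay above the C57BL/6 median in 7 of 10 cases, but the groups overlapped over most of their range. The means were 8.49 ± 1.79 and 9.48 ± 1.34 CPM, with a log2 fold change of 0.17 (SE 0.0979, 95% interval -0.04 to 0.37) and an FDR of 0.395 by limma. Against C57BL/6 replicate 4 alone, without the 9 samples, the log2 fold change was 0.57. That replicate was the lowest C57BL/6 brain for *Pdk4*, at 6.19 CPM. *Pdk2*, the kinase of most tissues (chromosome 11, 95026258-95041354, minus strand), ranged from 130 to 156 CPM in C57BL/6 (median 141) and from 124 to 151 CPM in *Winnie* brains (median 145). Its log2 fold change was 0.02 (SE 0.0429, 95% interval -0.07 to 0.10, FDR 0.887), and 0.11 without the 9 samples.

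The 4 kinases of pyruvate dehydrogenase were also compared as shares of their sum per kilobase of exon, with all annotated exons of a gene joined. *Pdk2* made up 68.1 ± 2.06% in C57BL/6 and 67.8 ± 2.61% in *Winnie* brains. *Pdk3* took 18.2 ± 1.44% and 18.4 ± 1.90%, and *Pdk1* 10.1 ± 0.447% and 9.73 ± 0.771%. *Pdk4* was the smallest, with 3.71 ± 0.860% and 4.07 ± 0.546%. Its share differed by 0.351 percentage points, less than the spread between mice (two-sided permutation p = 0.284).

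*Txnip* (chromosome 3, 96557957-96561883, plus strand), whose promoter holds the paired CACGAG shown above, ranged from 15.1 to 24.1 CPM with a median of 16.8 in C57BL/6 brains, and from 15.8 to 35.0 CPM with a median of 23.3 in *Winnie* brains. *Winnie* replicates 2, 3, 4, 9 and 10 lay above every C57BL/6 brain, whereas the other 5 lay within the C57BL/6 range. The coefficient of variation was 14.9% in C57BL/6 and 28.8% in *Winnie* brains. The means were 17.6 ± 2.62 and 24.4 ± 7.02 CPM. The log2 fold change of 0.42 was the largest of the 9 in size, but so was its SE of 0.140 (95% interval 0.13 to 0.71), and the FDR was 0.112 by limma. It did not pass in any of the 20 fits that left out 1 library (FDR 0.0590 to 0.175). Without the 9 C57BL/6 samples the log2 fold change was 0.54. *Txnip* and *Pdk2* each have an antisense gene in the annotation, whose reads cannot be told apart without strand.

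DESeq2 on the recovered reads called 5 members: besides *Ucp2* and *Acot1*, *Cpt1a* (log2 fold change 0.16, adjusted p = 0.0371), *Ppara* (0.42, adjusted p = 0.0388) and *Txnip* (0.47, adjusted p = 0.0276). It also called 977 of all genes, against 434 by limma. edgeR's quasi-likelihood test gave adjusted p-values of 0.0378 for *Ucp2*, 0.0304 for *Acot1*, 0.0647 for *Cpt1a*, 0.0667 for *Ppara* and 0.0728 for *Txnip*.

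The members were next compared with each other across the 20 mice after subtraction of each genotype's mean. Of 36 pairs, none passed a Benjamini-Hochberg adjustment over the pairs. The strongest was *Cpt1a* with *Ppara*, the receptor and its target, with Pearson's r of 0.62 and Spearman's rho of 0.54 (permutation p = 0.00393 and 0.0185, adjusted 0.141 and 0.333). The r was 0.60 within C57BL/6, 0.69 within *Winnie*, and 0.54 without the 2 mice farthest from the median of *Cpt1a*. *Ucp2* and *Acot1* varied in opposite directions, with r of -0.52 and rho of -0.55 (permutation p = 0.0229 and 0.0155, adjusted 0.389 and 0.333). The r was -0.46 within C57BL/6, -0.59 within *Winnie*, and -0.55 without the 2 mice farthest from the median of *Ucp2*. *Pdk4* and *Txnip* gave r of 0.43 and rho of 0.45 (permutation p = 0.0324 and 0.0319, adjusted 0.389 and 0.359). Their r was 0.60 within C57BL/6, 0.43 within *Winnie* and 0.33 without the 2 mice farthest from the median of *Pdk4*.

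**Figure D3:**
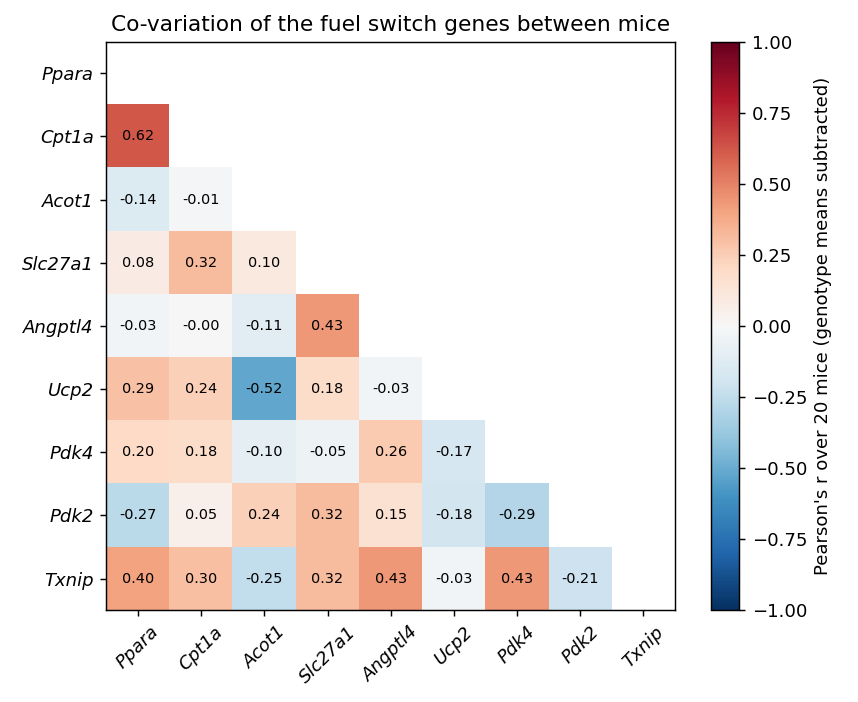
Pearson's r between each pair of the 9 genes over 20 mice (log2(CPM + 0.5), genotype means subtracted); red is positive and blue negative. *Cpt1a* with *Ppara* (0.62) and *Ucp2* with *Acot1* (-0.52) were the strongest pairs of either sign, and none passed adjustment over the 36 pairs.

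Each member was also compared with 15167 other genes with a mean of at least 1 CPM. Spearman's rho was taken over the same 20 mice after subtraction of each genotype's mean. Genes among the 5 most like each member are given as a description, since the mice share library preparation and depth. They were picked as the highest of 15167 values, and whether any rho exceeds what such a choice gives by chance was not tested. *Txnip* was most like *Arrdc3* (0.91), which encodes another alpha-arrestin, followed by *Apold1* (0.85), *Lama4* (0.81), *Socs3* and *Snx21* (0.80 each). *Arrdc3* itself was at 55.7 ± 5.16 and 62.2 ± 11.1 CPM (log2 fold change 0.15, FDR 0.374). *Pdk4* was most like *Irf2bpl* (0.88), *Arl5b* (0.84), *Trib1*, *Ppp1r3c* and *Tiparp* (0.83 each), of which *Ppp1r3c* encodes a glycogen-targeting subunit of protein phosphatase. *Ppara* was most like *Hadha* (0.82), which encodes a subunit of the mitochondrial trifunctional protein of fatty acid oxidation, then *Heg1* (0.80), *Gm10010* (0.79), *She* (0.77) and *Tns1* (0.76).

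For *Cpt1a* the nearest genes included *Xlr3a* (0.79), *Adhfe1* (0.78), *Olfml1* (0.77) and *Abhd1* (0.74). *Angptl4* was nearest to *Paox* (0.83), *Cox5a* (0.82), *Gm4211* (0.77), *Cox16* (0.74) and *Glrx* (0.73). *Ucp2* was nearest to *Gm19774* (0.75), *Slc2a12* (0.73), *Armc5* and *Kcnk3* (0.72 each) and *Timp3* (0.71). *Acot1* was nearest to *Lyrm1* (0.78), *Xkrx* (0.76), *Tsg101* (0.75), *Abhd11* (0.74) and *Gm27030* (0.73). *Slc27a1* was nearest to *Trim7* (0.82), *Panx2* (0.79), *Gm10524*, *Thbs2* and *Tprn* (0.78 each). *Pdk2* was nearest to *Yif1b* (0.84), *Tubg2* (0.79), *Dnajc30*, *Cplx1* and *Prr13* (0.78 each). No member was among the 5 nearest genes of another.

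The members were then set beside the other genes of their pathways, in 14 lists with 178 measured genes besides the members. Of these 178, 9 were higher and 3 lower at an FDR under 0.05, and their median log2 fold change was 0.00. At an unadjusted p under 0.05, 31 were higher and 29 lower, together 33.7% of the 178 against 17.6% of all genes. With the members counted, this share ran from 14.3% at the pyruvate dehydrogenase gate to 58.8% in glucocorticoid and FoxO targets. For the gate, mitochondrial fatty acid oxidation and PPAR targets it was below that of all genes, and for peroxisomal oxidation close to it. The lists were chosen with earlier results of these data known, so these shares only describe them. Whether the calls at an FDR under 0.05 hold without the 9 C57BL/6 samples against their sex label cannot be told, since replicate 4 alone is then left for C57BL/6. Of 20 genes of mitochondrial fatty acid oxidation none passed the FDR, 15 had a negative log2 fold change, and the median was -0.05. At an unadjusted p under 0.05, 3 of them were lower, among them *Hadh* (log2 fold change -0.14, p = 0.0149) and *Etfa* (-0.16, p = 0.0299). *Hadha*, the nearest gene to *Ppara* across mice, was at 62.3 ± 2.79 and 60.8 ± 4.26 CPM.

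Of 14 genes at the pyruvate dehydrogenase gate, none passed the FDR and 2 were lower at an unadjusted p under 0.05, *Mpc2* of the mitochondrial pyruvate carrier (log2 fold change -0.13, p = 0.0254) and *Pdhb* (-0.10, p = 0.0279). In the carnitine shuttle (9 of 10 measured) none passed, and besides *Cpt1a* the mitochondrial acetyl-CoA carboxylase *Acacb* was higher at an unadjusted p under 0.05 (0.26, p = 0.0190). Of 16 measured genes of peroxisomal oxidation none passed, 1 was higher and 2 lower at an unadjusted p under 0.05, and the smallest p-values were those of *Acaa1a* (-0.14, p = 0.0205) and *Acox3* (0.10, p = 0.0355). Of 10 genes of ketone body synthesis and use, *Slc16a6*, a monocarboxylate transporter, fell from 16.6 ± 1.04 to 13.9 ± 1.61 CPM (log2 fold change -0.25, FDR 0.0204). With *Slc16a1*, *Bdh2* and *Oxct1*, 4 of the 10 were lower at an unadjusted p under 0.05 and none was higher, and 8 of 10 log2 fold changes were negative. Among 14 measured genes of fatty acid uptake and activation, 1 was higher and 2 lower at an unadjusted p under 0.05. *Fabp7*, the fatty acid binding protein of glia, fell from 12.9 ± 2.35 to 9.50 ± 1.43 CPM (-0.42, FDR 0.0163).

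*Acot1* was the only one of 13 thioesterases called, and *Ucp2* the only one of 5 measured uncoupling proteins. *Slc25a14* of the latter list was lower at an unadjusted p under 0.05 (log2 fold change -0.13). Of 25 measured PPAR target genes the same pair was called. When the members were taken out, 19 remained, of which none passed the FDR and 1, *Fabp3*, had an unadjusted p under 0.05. Among 19 PPARs, partners and coactivators, 8 were higher and 2 lower at an unadjusted p under 0.05, *Ppara* among the former. *Ppargc1a*, the coactivator of mitochondrial genes, increased from 59.2 ± 3.33 to 66.5 ± 5.45 CPM (0.17, FDR 0.0429). It was called in 7 of the 20 fits that left out 1 library, with an FDR of up to 0.0953.

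In lipolysis (12 of 16 measured) 3 genes were higher and 3 lower at an unadjusted p under 0.05. *Pnpla2*, the triglyceride lipase ATGL, increased from 26.3 ± 2.37 to 32.6 ± 3.46 CPM (log2 fold change 0.30, FDR 0.00590). *Plin4*, a lipid droplet coat protein, increased from 3.73 ± 1.85 to 18 ± 13.7 CPM (1.91, FDR 0.0163), with a large spread between *Winnie* mice. *Mgll*, the monoacylglycerol lipase, fell from 212 ± 23.1 to 184 ± 10.2 CPM (-0.20, FDR 0.0282, and up to 0.0643 when 1 library was left out). In the list of 17 alpha-arrestins and glucose sensing genes that holds *Txnip*, 6 were higher and 3 lower at an unadjusted p under 0.05. The paralog *Arrdc2* increased from 9.01 ± 2.38 to 15.1 ± 4.23 CPM (0.70, FDR 0.0316, and up to 0.0630 when 1 library was left out). *Slc2a1*, the glucose transporter of the blood-brain barrier and astrocytes, increased from 95.6 ± 15.4 to 130 ± 12.3 CPM (0.45, FDR 0.00551). TXNIP is known to restrain this transporter.

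Of 19 fasting-responsive transcription factors and kinases, 4 were higher and 4 lower at an unadjusted p under 0.05. *Klf15* increased from 18.1 ± 3.54 to 23.7 ± 3.32 CPM (log2 fold change 0.39, FDR 0.02). Its product is a glucocorticoid-induced factor of fasting metabolism. Of 17 measured glucocorticoid and FoxO targets, 9 were higher and 1 lower at an unadjusted p under 0.05, with a median log2 fold change of 0.22. The 3 that passed the FDR were *Tsc22d3*, from 60.7 ± 10.6 to 84.5 ± 11.8 CPM (0.48, FDR 0.0139), *Sgk1*, from 69.9 ± 30.3 to 133 ± 38.7 CPM (0.98, FDR 0.0374), and *Errfi1*, from 33.8 ± 4.24 to 41.1 ± 5.68 CPM (0.28, FDR 0.0393). *Sgk1* was called in 8 and *Errfi1* in 9 of the 20 fits that left out 1 library (FDR up to 0.0701 and 0.0761), and *Tsc22d3* and *Klf15* in all 20. Beside these, endothelial markers summed to a median of 194 CPM (171 to 239) in C57BL/6 and 208 CPM (188 to 228) in *Winnie* brains, with 2 of 8 higher and 1 lower at an unadjusted p under 0.05. The lower one, *Cldn5*, passed the FDR, from 16.4 ± 2.37 to 11.7 ± 1.70 CPM (-0.47, FDR 0.00331), and *Slco1a4* was higher with an FDR of 0.0503. Markers of pericytes and smooth muscle summed to 202 CPM (184 to 222) and 212 CPM (192 to 228), with 3 of 8 higher at an unadjusted p under 0.05, of which *Abcc9* passed the FDR (0.29, FDR 0.0468). Their part in these results was not tested.

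**Figure D4:**
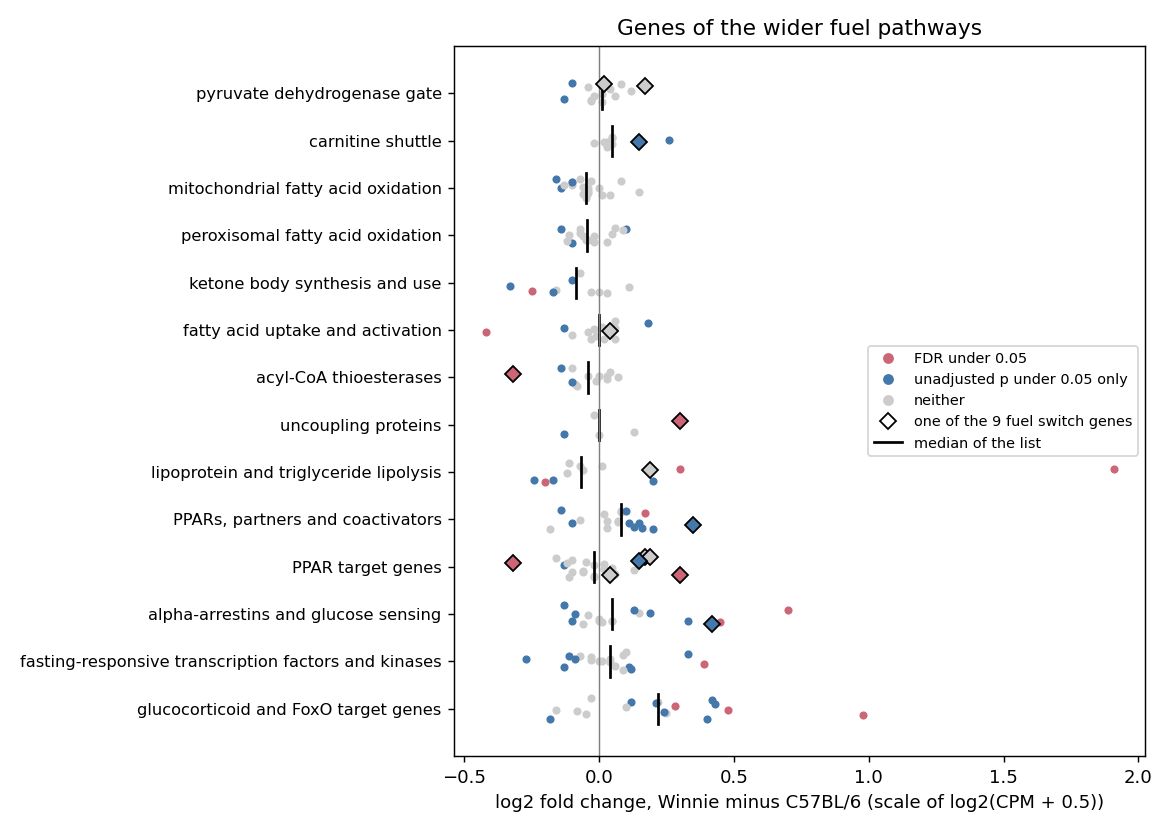
Log2 fold change of *Winnie* minus C57BL/6 brains for each measured gene of the 14 pathway lists (points; diamonds are the 9 fuel switch genes, colours give the call, black bars the list medians). The medians of 13 lists lie between -0.08 and 0.08, and that of glucocorticoid and FoxO targets at 0.22; the point at 1.91 is *Plin4*.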

How the data were processed

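Whole-brain polyA RNA of 20 mice was sequenced in paired reads of 100 bases. The authors aligned them to GRCm38 with the RNAsik pipeline, counted reads per gene with featureCounts and deposited CPM values made in Degust. The aligner, use of strand and low-count filter are not given in the sources used here. Read numbers were recovered from the CPM steps (100.0% of values whole within 0.1 read). All 20 labelled samples were analysed, which is more than the methods state for brain. Genes were matched to GENCODE M21 (17128 of 17211). The members, lists, tests and named-gene rules were chosen with earlier results of these data known. The named genes are the 9 members, their paralogs, called genes of each list or else its lowest p-values, and 5 nearest genes per member; some of these are not reported here. *Arrdc3*, *Hadha* and *Dnajb13* were also given values after these were seen. Genotypes were compared with limma 3.58.1 (trend, robust) on log2(CPM + 0.5), with adjustment over all genes. Alternatives included pseudocounts of 0.1 and 1, scaling, edgeR 4.0.16, DESeq2 1.42.0, sex terms and each library left out. Single values used 100000 permutations. Fits were tested on simulated data. R 4.3.3 and Python 3.11.15 were used.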

Additional observations from a re-analysis of the deposited data

Results flagged for a closer look

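In C57BL/6 replicate 1, *Txnip* was at 24.1 CPM, the highest of its group and far from the next brain at 19 CPM (the gap was 0.571 of the group's range). Over the 20 value sets examined (10 per genotype), chance would mark about 1 in 20. Leaving the library out kept the *Txnip* log2 fold change positive, within the range of 0.36 to 0.48 seen over all 20 libraries left out.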

How the results depend on the processing

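The 2 members at an FDR under 0.05 became 1 with the replicate block, 0 within labelled females, 0 within labelled males and 5 with DESeq2. The 434 calls over all genes became 227, 6, 61 and 977 in that order. The 5 members at an unadjusted p under 0.05 numbered 3 within labelled males. Calls are not compared for the fit without the 9 C57BL/6 samples against their sex label, which leaves replicate 4 alone for C57BL/6. In that fit *Ucp2* reversed to a log2 fold change of -0.07, and that of *Pdk4* was 0.57. The cause was not tested, and neither was the part of fewer samples. Leaving out 1 library gave 0 to 4 members, 169 to 694 genes, 5 to 6 members at an unadjusted p under 0.05, and a *Pdk4* share difference of 0.239 to 0.488 percentage points. Without C57BL/6 replicate 5 no member passed and without replicate 1 4 did. Same-numbered samples correlated between -0.293 and 0.151, above 0.1 in 2 of 10 numbers, and 1 of 10 samples was nearest to its own number, so the replicate numbers do not pair the mice; with the block *Acot1* had an FDR of 0.0646. Depth limits *Ppara* and *Angptl4* most, with 26 to 63 and 23 to 56 reads per library.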
